A study of Mus musculus with 4 samples.

Results

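Rab4a, its close relative Rab4b, the early endosome genes Rab5a, Rab5b and Rab5c, the recycling genes Rab11a, Rab11b and Rab14, and the effector genes Rabep1 and Rab11fip1 were examined in mouse lenses lacking S100A4. Rab4a was chosen by its fall in the comparison reported here, and the others were taken as its relatives and partners to ask whether any of them rose where Rab4a fell. All 10 genes were present among the 14924 genes of the expression table, and all 10 passed the filter on low values. Lenses were taken from 1-month-old S100A4-/- mice on a C57BL/6J background, labelled S100A4 null, and from wild type (WT) littermates. Each of the 4 libraries, 2 per genotype, was made from polyA RNA of 6 to 12 pooled lenses. The deletion is carried by every cell of the mouse, mice of both sexes were used in the study, and the sex makeup of each pool is not given in the sources used here.

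Rab proteins are small GTPases that mark membranes of the cell and, when bound to GTP, recruit effectors that tether, sort or move vesicles. Rab5 proteins act on the early endosome, where internalised receptors arrive, while Rab4 proteins act in the fast return of receptors from there to the cell surface. Rab11 proteins act in a slower return through the recycling compartment, and Rab14 acts between early endosomes, the Golgi and the surface. The protein of Rabep1, Rabaptin-5, binds both Rab4 and Rab5, and that of Rab11fip1, the Rab coupling protein, is an effector of Rab11 that also binds Rab4.

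Because a read of 50 bases could be assigned to the wrong relative where 2 genes are alike, the coding sequences were compared first. Rab4a and Rab4b were identical at 75.9% of 635 aligned coding bases, and Rab11a and Rab11b at 76.6% of 645. Against the coding sequences of the other Rab genes examined, Rab4a was identical at 59.4% (Rab5a) to 65.6% (Rab14) of aligned bases. The stretch of 50 aligned bases in which Rab4a and Rab4b were most alike still held 6 mismatches, and that of Rab11a and Rab11b held 5. Rab5a and Rab5b were closer, with 3 mismatches in such a stretch. Over all annotated transcripts, noncoding parts included, the longest unbroken run shared by Rab4a and Rab4b was 23 bases and by Rab5a and Rab5b 35 bases, while Rab4b and Rab11b shared a run of 70 bases, longer than a read, and Rab14 shared 47 bases with each of them. The stretches of Rab11a and Rab11b, the recycling pair, follow from the GRCm38 genome with GENCODE M21 transcripts, 5′ to 3′ along the coding strand, with the bases that differ in capitals. Both cover coding bases 331 to 380, each within 1 exon, at chr9:64726674-64726723 and chr17:33748917-33748966 (both minus strand).
Rab11a: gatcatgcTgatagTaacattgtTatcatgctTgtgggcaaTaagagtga
Rab11b: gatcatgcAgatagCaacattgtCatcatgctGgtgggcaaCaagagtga

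No 50-base word of the Rab4a transcripts, of 1752, was found in a transcript of another gene, and no other annotated gene overlapped its exons. The value of Rab4b is less certain. Of its 2197 words, 58.1% were also present in other genes, 56.0% in Gm21983, a gene annotated on the same strand that shares its exons, and reads from such an overlap may be left uncounted or be divided between the 2 genes. The authors counted on an earlier annotation (version 73), so whether this overlap touched their Rab4b counts is not known here. The shared portion was 13.6% in Rab11b, 9.8% in Rab5b, 4.07% in Rab11fip1, 4.03% in Rab5a, 1.85% in Rab11a and 0.63% in Rab14, and no word of Rab5c or Rabep1 was shared. The exons of Rab5a, Rab11b, Rabep1 and Rab11fip1 overlap a gene on the other strand. The libraries were stranded, but whether the counting used the strand is not given in the sources used here.

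The libraries held 81602367 and 74108017 gene reads in S100A4-/- lenses and 70253985 and 68038158 in WT lenses. Values are the authors' normalized values, which are gene read counts divided by 1 factor per library, so that a single read is worth 0.856 and 1.01 for S100A4-/- lenses and 1.04 and 1.09 for WT lenses. The labels were checked with S100a4 itself. Its normalized values were 14.6 and 18.2 in S100A4-/- lenses and 14420 and 14385 in WT lenses.

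Tests were made with limma across 14780 genes, with p-values adjusted over all of them, on log2(value + 1), a scale that understates changes of low genes. A gene was past the threshold where it differed at least 2-fold with an adjusted p of at most 0.05. At this threshold 3.65% of genes were higher in S100A4-/- lenses and 0.0744% (11 genes) were lower, and the lower count was 4 without S100A4-/- library 1 and 6 without S100A4-/- library 2. At the same adjusted p and any fold, 5.62% were higher and 1.33% lower (831 and 197 genes), and with libraries scaled to equal totals these were 783 and 55 genes. Of the 10 genes, 1 (Rab4a, selected on this fall) was past the threshold on the lower side, and no other was called in either direction at any fold.

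Rab4a, which encodes the better known of the Rab4 proteins, had normalized values of 40.2 and 38.5 in S100A4-/- lenses and 203.6 and 176.3 in WT lenses, from 47 and 38 reads against 195 and 161. Both S100A4-/- libraries lay far below both WT libraries, at a mean of 39.4 ± 1.23 against 190 ± 19.3 (SD, n = 2 each), or 20.7% of the WT level. The gene lies on chromosome 8 (GRCm38, 123805985 to 123835287, plus strand). The log2 fold change of -2.24 is given as a description, since the gene was chosen by it. It was the 8th lowest log2 fold change of all genes tested. In whole lenses, fewer cells that express a gene and less of its RNA per cell cannot be told apart.

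Rab4b, the second Rab4 gene, had normalized values of 42.8 and 50.7 in S100A4-/- lenses and 64.7 and 71.2 in WT lenses. Both S100A4-/- libraries were again the lower ones. The log2 fold change was -0.53, with a 95% interval of -1.08 to 0.01, and it was not past the threshold (limma, adjusted p = 0.297). The interval runs from 0.473 to 1.01 times the WT level. The counts were small, at 50 reads in each S100A4-/- library, against 62 and 65 for WT.

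To weigh both Rab4 genes together, values were divided by the exonic length of each gene in kb and summed per library. The sums and shares are a description, since Rab4a, chosen by its fall, sets most of them. The sum was 44.6 and 47.6 per kb in S100A4-/- lenses and 149 and 136 per kb in WT lenses, so that the S100A4-/- mean was 0.324 of the WT mean. Without division by length, the sums were 83.1 and 89.2 against 268 and 247, a ratio of 0.334. Rab4a made up 77.9% and 73.5% of Rab4 RNA per kb in WT lenses, and 51.3% and 46.0% in S100A4-/- lenses. The mean of Rab4a fell by 85.7 per kb between genotypes (a description, as above), while that of Rab4b was 10.8 per kb lower in S100A4-/- lenses.

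**Figure D1:**
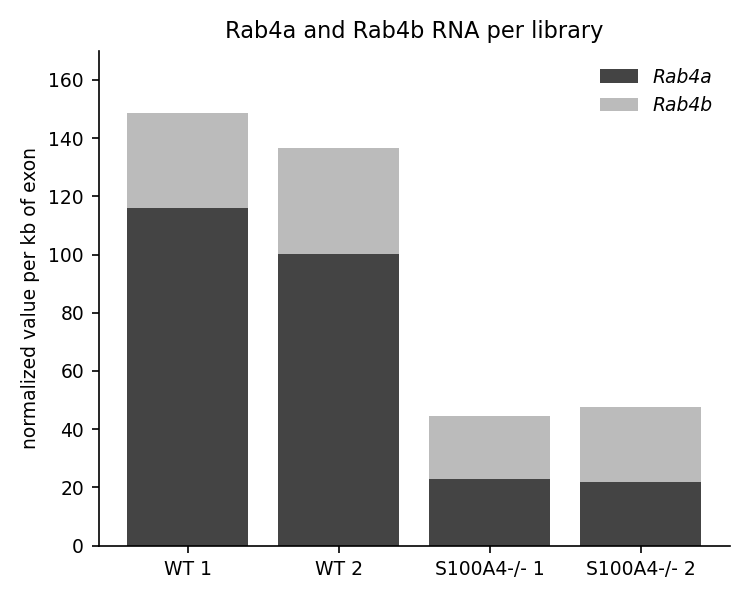
Normalized value per kb of exon (y axis) of Rab4a (dark) and Rab4b (light), stacked, in each of the 4 lens libraries (x axis). The stacks reach 149 and 136 for WT and 44.6 and 47.6 for S100A4-/- lenses, and neither gene's segment is taller in an S100A4-/- library than in a WT library.

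The Rab5 genes, whose proteins govern entry into and fusion of early endosomes, were far more abundant than the Rab4 genes and lay at nearly the same level in both genotypes. Rab5a had normalized values of 2430 and 2367 in S100A4-/- lenses and 2548 and 2291 in WT lenses. The groups overlapped, with a log2 fold change of -0.01 (95% interval -0.13 to 0.11, adjusted p = 0.954, limma). Rab5b had values of 1329 and 1359 against 1380 and 1359, the groups overlapping only narrowly. Its log2 fold change was -0.03 (95% interval -0.16 to 0.11, adjusted p = 0.891, limma). Rab5c, the most abundant of the 10 genes per kb of exon, had values of 2807 and 2926 against 2818 and 2938. The log2 fold change was -0.01 (95% interval -0.12 to 0.11, adjusted p = 0.976, limma). The 3 Rab5 genes summed to 6567 and 6652 in S100A4-/- lenses and 6746 and 6587 in WT lenses, a ratio of 0.991. For these genes the upper ends of the intervals leave room for a rise of at most 1.08-fold.

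Of the genes of the slower recycling route, Rab11a was somewhat lower in S100A4-/- lenses and Rab11b overlapped between groups. Rab11a had normalized values of 3179 and 3054 in S100A4-/- lenses and 3537 and 3313 in WT lenses. The 2 S100A4-/- values were the lower ones, with a log2 fold change of -0.14 (95% interval -0.25 to -0.03) that did not pass the adjustment (unadjusted p = 0.0176, adjusted p = 0.152, limma). Rab11b had values of 589 and 655 against 654 and 570, with a log2 fold change of 0.02 (95% interval -0.16 to 0.21, adjusted p = 0.932, limma). Each genotype had 1 higher and 1 lower Rab11b library. Rab14 had values of 2257 and 2300 in S100A4-/- lenses and 2361 and 2501 in WT lenses. Both S100A4-/- values were below both WT values, but the log2 fold change of -0.09 (95% interval -0.21 to 0.03) was not past the threshold (adjusted p = 0.434, limma).

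Neither effector gene was called. Rabep1 had normalized values of 1865 and 1824 in S100A4-/- lenses and 1890 and 1780 in WT lenses, the WT libraries lying on either side of the S100A4-/- ones. Its log2 fold change was 0.01 (adjusted p = 0.968, limma). Rab11fip1 had values of 1136 and 1124 against 1019 and 1124. The upper WT library was level with the lower S100A4-/- library, and the log2 fold change of 0.08 (adjusted p = 0.646, limma) was the highest of the 10 genes.

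**Figure D2:**
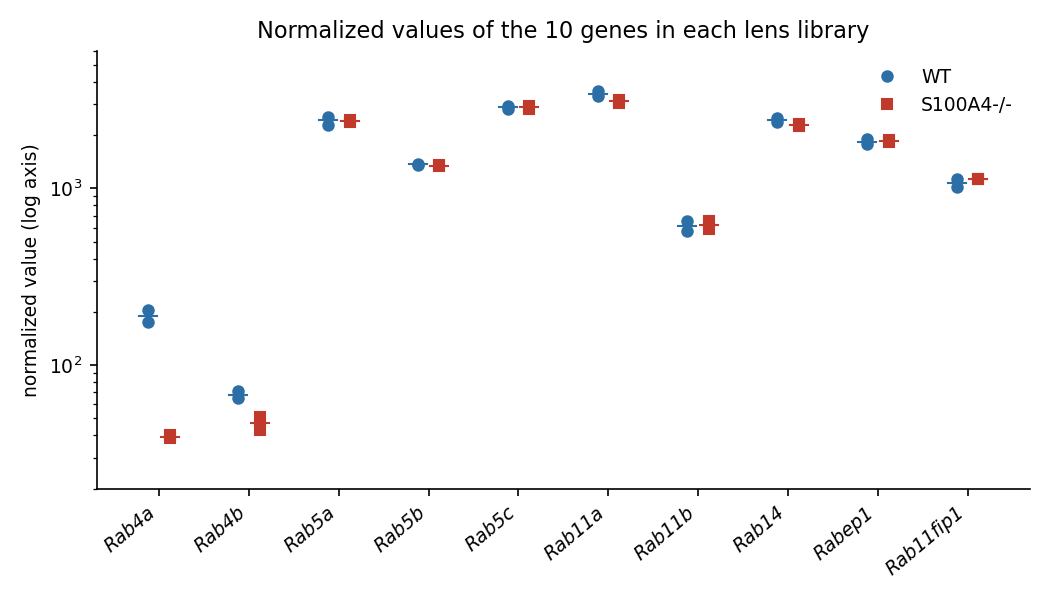
Normalized values (log axis) of the 10 genes in 2 WT (circles) and 2 S100A4-/- (squares) lens libraries, with short lines at the group means. Rab4a shows the widest gap, from 40.2 and 38.5 to 203.6 and 176.3, and the points of 6 genes overlap between groups.

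Among the 9 genes other than Rab4a, none was past the threshold by limma, DESeq2 or edgeR, and 1 (Rab11a, on the lower side) had an unadjusted p under 0.05, beside 17.7% of all genes tested. Their median log2 fold change was -0.01, beside -0.01 over all genes tested. In 3 of the 9 (Rab4b, Rab11a and Rab14) both S100A4-/- values were below both WT values, and in 0 of the 9 were both above. Over all genes tested, 23.2% lay wholly below and 23.7% wholly above.

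**Figure D3:**
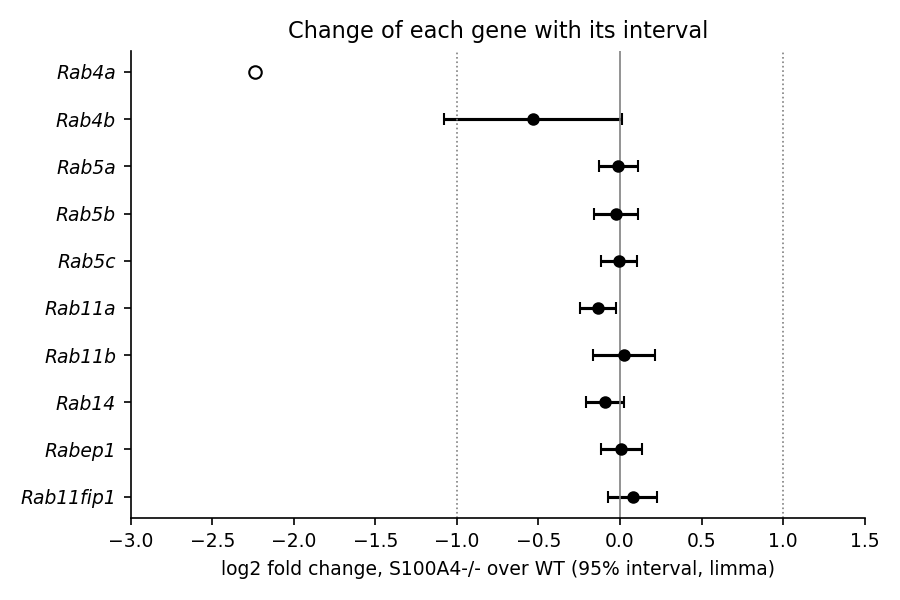
Log2 fold change of S100A4-/- over WT lenses (x axis) for each of the 10 genes (y axis), with limma's 95% interval. Dotted lines mark a 2-fold change, and Rab4a, chosen by its fall, is an open point without an interval. Of the other 9 genes, Rab4b alone has an interval that reaches a 2-fold fall (-1.08 to 0.01), and none reaches a 2-fold rise.

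Levels between genes were compared per kb of exon. The order holds for this length only, which for some genes far exceeds that of a single transcript. It was 13589 bases for Rab14 and 6868 for Rabep1, against 3081 and 2791 in the transcripts whose coding sequences were compared. In WT lenses the order was Rab5c (1312), Rab11a (1145), Rab5a (459), Rab5b (326), Rabep1 (267), Rab14 (179), Rab4a (108), Rab11b (99.8), Rab11fip1 (99.2) and Rab4b (34.5). Rab11b overlapped with Rab4a above it and Rab11fip1 with Rab11b, and no other neighbours in this order overlapped. In S100A4-/- lenses Rab4a stood last at 22.4 ± 0.699 per kb, within the range of Rab4b at 23.7 ± 2.82 (SD, n = 2 each). The first 6 places were the same in both genotypes. The Rab4 genes together made up 4.01% and 3.77% of the RNA of the 8 Rab genes per kb in WT lenses, and 1.30% and 1.38% in S100A4-/- lenses, again a description set mostly by Rab4a.

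The rest of the Rab family was read in the same fit. Of 52 Rab genes in the table, 2 were past the threshold, Rab4a (selected on its fall) on the lower side and Rab3c on the higher side, beside the 0.0744% and 3.65% of all genes. Rab3c, known from synaptic vesicles, had normalized values of 35.1 and 47.6 in S100A4-/- lenses and 8.35 and 9.85 in WT lenses. Both S100A4-/- values were well above both WT values, with a log2 fold change of 2.06 (adjusted p = 0.0019, limma). The call for Rab3c was lost without S100A4-/- library 1 (adjusted p = 0.103) or 2 (adjusted p = 0.179). Rab43, a gene of Golgi and endoplasmic reticulum traffic, was the only other Rab gene called at any fold. Its values of 1145 and 972 lay above the WT values of 879 and 826, with a log2 fold change of 0.31 (adjusted p = 0.0105, limma). That call was lost without S100A4-/- library 1 (adjusted p = 0.391) or WT library 2 (adjusted p = 0.0989), and DESeq2 did not make it (adjusted p = 0.0838). The median log2 fold change of the 52 genes was -0.02. In 15 of the 52 both S100A4-/- values were below both WT values, and in 10 they were above, beside the 23.2% and 23.7% of all genes tested.

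**Figure D4:**
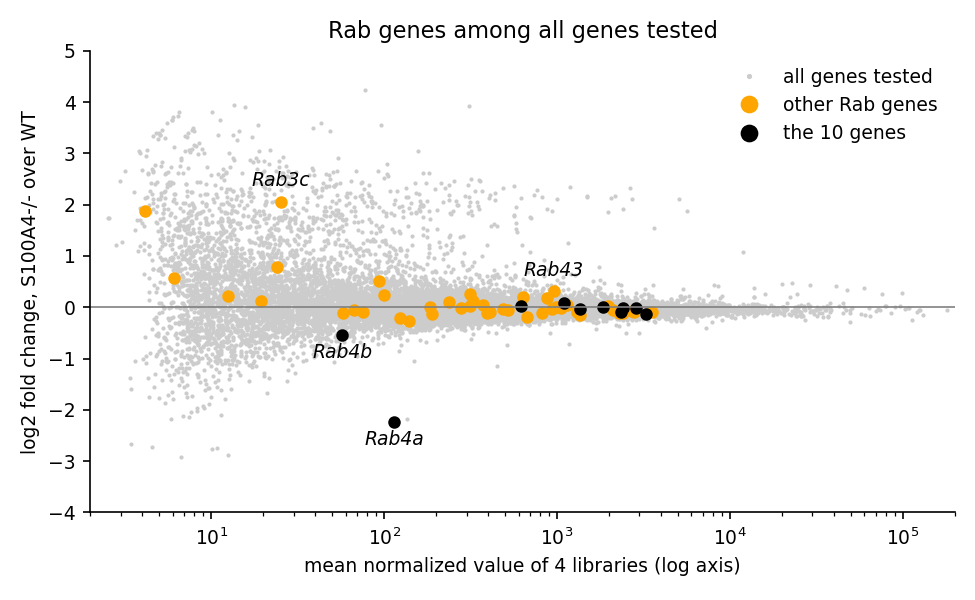
Log2 fold change of S100A4-/- over WT lenses (y axis) against the mean normalized value of the 4 libraries (x axis, log axis) for genes tested (grey), with the 10 genes in black and the other Rab genes in orange. Rab4a lies at -2.24 and Rab3c at 2.06, while the more abundant Rab genes sit close to 0. A further 23 genes lie outside the axes.

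Other genes of the endosome pathway were taken as lists, 85 genes in all. None was past the threshold by limma, DESeq2 or edgeR, while 15 (a share close to the 17.7% of all genes) had an unadjusted p under 0.05. At any fold 5 of the 85 were called by limma, each of them higher in S100A4-/- lenses, beside the 5.62% of all genes called higher. By edgeR 4 were called and by DESeq2 0. Lower calls appeared under some other settings, with 5 higher and 1 lower at a pseudocount of 5 and 1 of each with quantile normalization.

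Of 29 tethers, effectors and activators of Rab4 and Rab5 on the early endosome, 2 were called at any fold. Over all genes, 5.62% were called higher and 1.33% lower. The median log2 fold change of the list was -0.02. Appl2, an adaptor on Rab5 endosomes, had normalized values of 1192 and 1233 in S100A4-/- lenses and 1013 and 1035 in WT lenses, which gives a log2 fold change of 0.24 (adjusted p = 0.0268, limma). Rabgef1 encodes Rabex-5, which loads Rab5 with GTP and binds Rabaptin-5. Its values were 414 and 406 against 337 and 307, a log2 fold change of 0.35 (adjusted p = 0.0447, limma). In both genes the S100A4-/- libraries were above the WT libraries. Neither call held without S100A4-/- library 1, S100A4-/- library 2 or WT library 2, with adjusted p of 0.154, 0.223 and 0.0843 for Appl2 and of 0.320, 0.252 and 0.281 for Rabgef1, and that for Appl2 was also lost without WT library 1 (adjusted p = 0.164).

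Of 14 effectors and activators of Rab11, 1 was called at any fold, and the median log2 fold change was -0.01. The shares of all genes called at any fold were 5.62% higher and 1.33% lower, for this list and the next. Rab11fip4, which encodes another Rab11 effector, had normalized values of 622 and 559 in S100A4-/- lenses and 521 and 429 in WT lenses, which gives a log2 fold change of 0.32 (adjusted p = 0.046, limma). This call was lost without S100A4-/- library 1 (adjusted p = 0.479), S100A4-/- library 2 (0.217) or WT library 2 (0.517). Of 23 sorting nexins, retromer, WASH and EHD genes, which shape and cut the tubules that leave endosomes, 1 was called at any fold, with a median of -0.02. Ehd3, which acts between early endosomes and the recycling compartment, had values of 254 and 272 against 152 and 230, a log2 fold change of 0.49 (adjusted p = 0.0455, limma). Its WT libraries lay far apart. The log2 fold change was 0.19 (adjusted p = 0.642) without WT library 1 and 0.78 (adjusted p = 0.000157) without WT library 2, and the call was also lost without S100A4-/- library 1 (0.386) or 2 (0.460).

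None of the 8 Rab escort, prenylation and GDI genes, which load Rab proteins onto membranes and take them off again, was called at any fold, with a median log2 fold change of -0.08. Of 11 receptors and transporters that travel through recycling endosomes, 1 was called. Both counts stand beside 5.62% of all genes called higher and 1.33% called lower. Lrp1, an endocytic receptor, had normalized values of 8638 and 7477 in S100A4-/- lenses and 6423 and 7299 in WT lenses, which gives a log2 fold change of 0.23 (adjusted p = 0.0051, limma). The lower S100A4-/- library was close to the upper WT library, and the call was lost without S100A4-/- library 1 (adjusted p = 0.475) or WT library 1 (0.285). The transferrin receptor gene Tfrc, the classical cargo of Rab4 and Rab11 recycling, had values of 1552 and 1580 against 1745 and 1593 and was not past the threshold (log2 fold change -0.09, adjusted p = 0.516, limma). Tfrc was picked from its list as that cargo, after its values were seen.

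Genes next to Rab4a were read to see whether the change extended along the chromosome. Of 32 annotated genes reaching within 200 kb, 8 were in the table, Rab4a included. The nearest, Ccsap, had normalized values of 18.8 and 25.3 in S100A4-/- lenses and 17.8 and 2.19 in WT lenses, the last from 2 reads. Its log2 fold change of 1.56 was not past the threshold (adjusted p = 0.168, limma), and it rested on the WT library left in, at 2.84 (adjusted p = 0.0045) without WT library 1 and 0.29 (adjusted p = 0.883) without WT library 2. The log2 fold changes of the others were 0.10 for Rhou, -0.57 for Gm4342, -0.01 for Nup133, 0.14 for Abcb10, 0.07 for Taf5l and 0.34 for Urb2. None of these 6 was called (adjusted p from 0.212 to 0.966, limma), while Urb2 moved to 0.55 (adjusted p = 0.0257) without WT library 2 and to 0.12 (adjusted p = 0.824) without WT library 1. Gm4342 had values of 5.14 and 6.08 against 16.7 and 4.38, near the lowest levels kept.

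**Figure D5:**
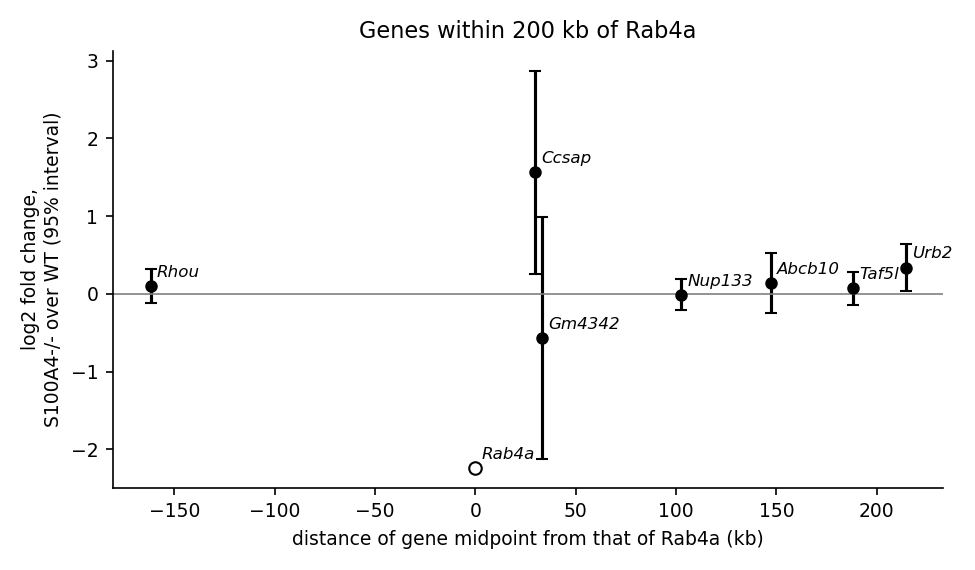
Log2 fold change of S100A4-/- over WT lenses (y axis, with limma's 95% interval) against the distance of each gene's midpoint from that of Rab4a (x axis, kb), for the genes in the table that reach within 200 kb. Rab4a, an open point without an interval, lies at -2.24, and the other 7 lie between -0.57 (Gm4342) and 1.56 (Ccsap).

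The genes whose pattern over the 4 libraries was most like that of Rab4a were found by Euclidean distance between centred log2 values, among genes whose mean value reached 50. The nearest was Dynlt1b, a dynein light chain gene, at a distance of 0.23, with normalized values of 53.1 and 44.6 in S100A4-/- lenses and 219 and 228 in WT lenses. It was followed by Pttg1 (1.10), Cck (1.21), 9630028B13Rik (1.28) and Pole (1.33). Pttg1, the securin gene, had values of 276 and 283 against 671 and 566. All 5 were lower in S100A4-/- lenses, which the choice by likeness fixes. Rab4a was 5th in order of log2 fold change among the 11 genes past the threshold on the lower side.

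Marker genes of other cells of the eye also differed between the genotypes. All 7 rod photoreceptor markers were past the threshold and higher, and summed to 6799 and 6566 in S100A4-/- lenses against 1510 and 1594 in WT lenses. The most abundant, Gnat1, had normalized values of 3339 and 3327 against 736 and 782. Past the threshold and higher were 4 of 4 markers of pigmented cells, 5 of 7 of retinal neurons and 3 of 5 of Müller glia. So were 3 of 4 of macrophages and 1 of 4 of blood vessels, beside 3.65% of all genes tested. None of these lists had a marker past the threshold on the lower side. Aqp4, Pecam1 and Cdh5 overlapped between the genotypes. The summed values of the lists were 1142 and 1168 against 170 and 249 for pigmented cells (most abundant in S100A4-/- lenses Dct, 581 and 582 against 31.3 and 44.9) and 828 and 728 against 195 and 177 for neurons (Syt1, 399 and 351 against 82.5 and 66.8). In WT lenses Tyrp1 was above Dct, at 92.9 and 153, and it had 314 and 268 in S100A4-/- lenses. For Müller glia the sums were 85143 and 86876 against 80458 and 80852, nearly all of it from Dkk3 (78434 and 80316 against 77855 and 78029). For macrophages they were 209 and 187 against 75.2 and 58.0 (Csf1r, 93.3 and 69.9 against 33.4 and 35.0), and for blood vessels 154 and 145 against 58.5 and 69.0 (Kdr, 74.5 and 60.8 against 9.40 and 9.85). Kdr led its list only in S100A4-/- lenses. In WT lenses Pecam1 was above Kdr, at 18.8 and 24.1, and it had 23.1 and 24.3 in S100A4-/- lenses. The call for Csf1r was lost in 3 of 15 alternatives, with log2 fold changes of 0.98 to 1.42 over all of them. That for Kdr was lost in 1 of 14, with log2 fold changes of 2.31 to 2.83. The authors read the photoreceptor and Müller glia genes as induced in the lens itself, and stained PDEγ and transducin in lens sections. Whether other cells of the eye were in the pools was not tested here, nor was their part in the values of the Rab genes.

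Markers of the lens itself were abundant in all 4 libraries. None of the 7 fiber markers and 4 epithelium markers was called by limma, beside 5.62% higher and 1.33% lower over all genes. Crygs was called lower by edgeR (log2 fold change -0.11, adjusted p = 0.024) and by limma after quantile normalization (-0.08, adjusted p = 0.004). The fiber markers, led by Crygs, summed to 4631430 and 4794040 in S100A4-/- lenses and 5102480 and 4986870 in WT lenses, and the epithelium markers, led by Pax6 (5905 and 5598 against 5410 and 5583), to 17817 and 17682 against 17313 and 17619.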

How the data were processed

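Lens polyA RNA was sequenced as stranded libraries in 1 lane, with single-end reads of 50 bases. The deposited values are a signal per gene: the authors trimmed reads with Trim Galore, aligned them with STAR to GRCm38 (mm10, annotation version 73), counted uniquely placed reads by HTSeq, left out genes that reached 10 reads in no library and scaled the counts by DESeq2 size factors. Tool versions are not given in the sources used here. Whole reads were recovered for 100.0% of values (tolerance 0.1 read). A few genes took much of each library (the top 10 held 60.1% to 61.7% of reads), and 50 reads or fewer in a library limit the precision of Rab4b.

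Values with a minimum of 10 in at least 1 library (14780 of 14924 genes) were tested by limma 3.58.1 (R 4.3.3, trend) on log2(value + 1), with Benjamini-Hochberg adjustment over all genes. DESeq2 1.42.0 and edgeR 4.0.16 were alternatives on the recovered reads, besides other pseudocounts, filters, scalings, a replicate block, limma's treat test and leaving out each library. Genes were matched by identifier to GENCODE M21 (14782 of 14924), which also gave exonic lengths and sequences. The aligned stretches of the Rab4 pair are not reported here. The named genes were the 10 genes, S100a4, Rab genes and pathway list genes past an adjusted p of 0.05, genes within 200 kb of Rab4a, the 5 nearest in pattern and the most abundant gene of each marker list. For pigmented cells (Dct) and blood vessels (Kdr) that gene was the most abundant in S100A4-/- lenses only, so its change is shown as a description. Tfrc, Tyrp1, Aqp4, Pecam1 and Cdh5 fall outside this rule and were named after their values were seen. The members and lists were chosen with earlier results of these data known. Libraries are separate pools of mice, 2 per genotype. The p-values and intervals of limma rest on the spread between pools, drawn toward the spread of genes of a like level. They do not measure the spread of each gene's own pools alone.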

Additional observations from a re-analysis of the deposited data

How the results depend on the processing

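Rab4a had log2 fold changes of -2.42 to -2.13 under 15 alternatives, a description only, since it was chosen by its fall in these libraries. Rab4b stayed lower and uncalled (-0.75 to -0.41, adjusted p 0.114 to 0.740). Log2 fold changes close to 0 changed sign without being called: with equal totals Rab5a was 0.0186, Rab5b 0.0019, Rab5c 0.0234 and Nup133 0.0156, and with quantile normalization Rab5a was 0.0237, Rab5c 0.0199, Abcb10 -0.0034 and Dkk3 -0.014. Leaving out 1 library gave -0.0872 to 0.0662 for Rab5a, -0.0356 to 0.0242 for Rab5c, -0.0736 to 0.123 for Rab11b, -0.035 to 0.0512 for Rabep1, -1.43 to 0.293 for Gm4342, -0.178 to 0.151 for Nup133 and -0.0332 to 0.174 for Taf5l. The median of all genes moved by less than 0.1 under each scaling.

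The 550 genes past the threshold became 287 with a mean value of at least 50, 181 without the trend, 171 by limma's treat test and 172 to 559 without 1 library, the lowest counts being 172 and 216 without S100A4-/- library 1 and 2. The lower genes among them, 11, numbered 23 with quantile normalization, 7 without the trend, 6 by DESeq2 and with a mean value of at least 50, and 3 by treat. Genes called at any fold, 1028, became 187 without the trend, 662 by DESeq2 and 249 to 898 without 1 library. Rab genes past the threshold, 2, became 1 with a mean value of at least 50 (which leaves out Rab3c), without the trend and by treat, and 1 to 2 without 1 library. At any fold, 3 became 1 without the trend and 1 to 3 without 1 library. The 5 pathway genes called at any fold became 3 with a pseudocount of 0.5 and with no filter, 2 with a mean value of at least 50, with equal totals and with quantile normalization, 0 without the trend and by DESeq2, and 0 to 2 without 1 library. The causes of these differences were not tested. With 1 library left out, the lone library of a genotype was assumed to vary like the pair.

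The replicate numbers did not pair the samples (correlation of deviations 0.056). With the replicate block, 8 pathway genes (6 higher, 2 lower) in place of 5 were called at any fold, 591 genes in place of 550 were past the threshold, and the count of the 10 genes past it was 1 as before. Over all genes, 1330 (982 higher, 348 lower) were then called at any fold, in place of 1028 (831 higher, 197 lower).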
